A study of Danio rerio with 4 samples.

Results

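Cytosolic ribosomal protein genes were compared between the side population of adult zebrafish kidney and the remaining cells of the same scatter gate. They were taken by symbol, as every gene whose name begins with rpl or rps followed by a digit or the letter p, ribosomal S6 kinases left out. The rule found 73 genes among the 8793 genes of the array, 45 of the large subunit (rpl) and 28 of the small subunit (rps). The symbol rps19bp1, counted with the small subunit, names a protein that binds a ribosomal protein and is none itself. A further 11 genes of the RefSeq gene table match the rule and were not analysed here.

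The zSP cells were lymphoid-gate cells of low forward and side scatter that lay in the Hoechst side population, and the zMP cells, set against them, lay in the MP (main) population of that gate. Both came from adult fish, for which the labels name no treatment, strain or genotype. The cells of 20 fish and 3 sorting experiments were combined into 1 RNA pool for each population, and each pool was amplified, labelled and hybridized on 2 arrays. The arrays of a pool are therefore technical repeats, and no test between the populations was possible. In bulk RNA of this kind, fewer cells of a type and less RNA per cell cannot be told apart.

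The cytosolic ribosome joins a small subunit, which reads the messenger RNA, to a large subunit, which forms the peptide bond and lets the new chain out through a tunnel. Its proteins are made in matched amounts, and their messenger RNAs, among the most abundant of growing cells, begin with an oligopyrimidine stretch through which the mTOR pathway controls their translation. Blood formation is sensitive to their supply: loss of 1 copy of several of these genes causes Diamond-Blackfan anaemia in humans.

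Values are log2 RMA values. A difference is the zSP mean minus the zMP mean, and the range after it spans the 4 pairs of a zSP and a zMP array. A gene was called when each of these pairs differed by 1 or more (2-fold) and in one direction. The 2 pools differed in more than these genes. Over all genes 7.85% were called higher and 2.89% lower in zSP. Of 16 epithelial markers 13 were called higher in zSP, and their mean value was 8.02 and 7.82 on the zSP arrays, against 3.72 and 3.65 on the zMP arrays. Of 11 stromal markers 9 were called higher in zSP (mean value 7.45 and 7.11 on the zSP arrays, 4.31 and 4.36 on the zMP arrays). Of 11 leukocyte markers 4 were called lower in zSP, with means of 8.58 and 8.63 on the zSP arrays and 9.62 and 9.65 on the zMP arrays, while the defining leukocyte gene ptprc read 8.87 and 8.91 in zSP and 9.55 and 9.51 in zMP. The epithelial epcam was within the range of blank controls in zMP, at 3.98 and 3.87, against 11.44 and 11.70 in zSP. For the GAPDH control, the 3′ probe set exceeded the 5′ one by 3.83 and 4.06 on the zSP arrays and 3.03 and 3.15 on the zMP arrays. The part of cell composition and RNA quality in the results below was not tested.

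Ribosomal protein transcripts read lower in zSP across both subunits as deposited, but the size of this difference depended on how the arrays were scaled. The median difference over the 73 genes was -0.67, against -0.20 over all 8793 genes. The median value of the family was 12.15 and 12.09 on the zSP arrays, against 12.97 and 12.97 on the zMP arrays. Cyclic loess is fitted over all probe sets to remove differences that follow signal strength, though among 70 of the 73 members such a relation remained. After it the family's median difference was -0.18, beside 0.00 for all genes. A negative difference was then left in 49 of the 73 genes, against 71 as deposited. All but rps19bp1 lay above 6.15, the top of the blank controls, in both pools.

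In the deposited values 15 of the 73 genes were called lower in zSP, 10 of the large and 5 of the small subunit, where 2.89% of all genes were so called. Leaving out an array leaves fewer pairs to pass. Without zSP replicate 1 the count of members was 26 (6.70% of all genes). Without any other single array it was 15 to 20 (6.05% to 6.72% of all genes), the 15 without zSP replicate 2. None was called higher in zSP, a call made for 7.85% of all genes. Most genes of the array are dimmer than the members. Among the 2921 genes above the blank range in at least 1 pool, 6.57% were called lower and 16.9% higher in zSP. Their median difference was -0.03. At a size of 1.5-fold 36 members were lower in zSP (9.66% of all genes), and at 3-fold none was (0.694% of all genes). By the pool means alone 26 members were at least 2-fold lower in zSP, against 9.22% of all genes. The zSP arrays lay below the zMP arrays in all 4 pairs for 70 members, 44 of the large and 26 of the small subunit, against 41.0% of all genes. The 3 members outside this pattern were rps27l, rpl7l1 and rps19bp1, and without them the median was -0.72, from -1.76 for rpl22l1 to -0.12 for rpl3. These 3 were singled out after their values were seen. Differences between aliquots of 1 pool had an SD over the other 70 genes of 0.17 for zSP and 0.13 for zMP. Over all genes, many of them dim, those SDs were 0.82 and 0.72. The zSP aliquots were shifted to one side, with replicate 1 higher for 53 of the 70 genes (median 0.12). Over all genes the shift had the other sign, with 3973 of 8793 higher on zSP replicate 1 (median -0.05). For zMP, replicate 1 was higher for 41 of the 70 (median 0.03).

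**Figure D1:**
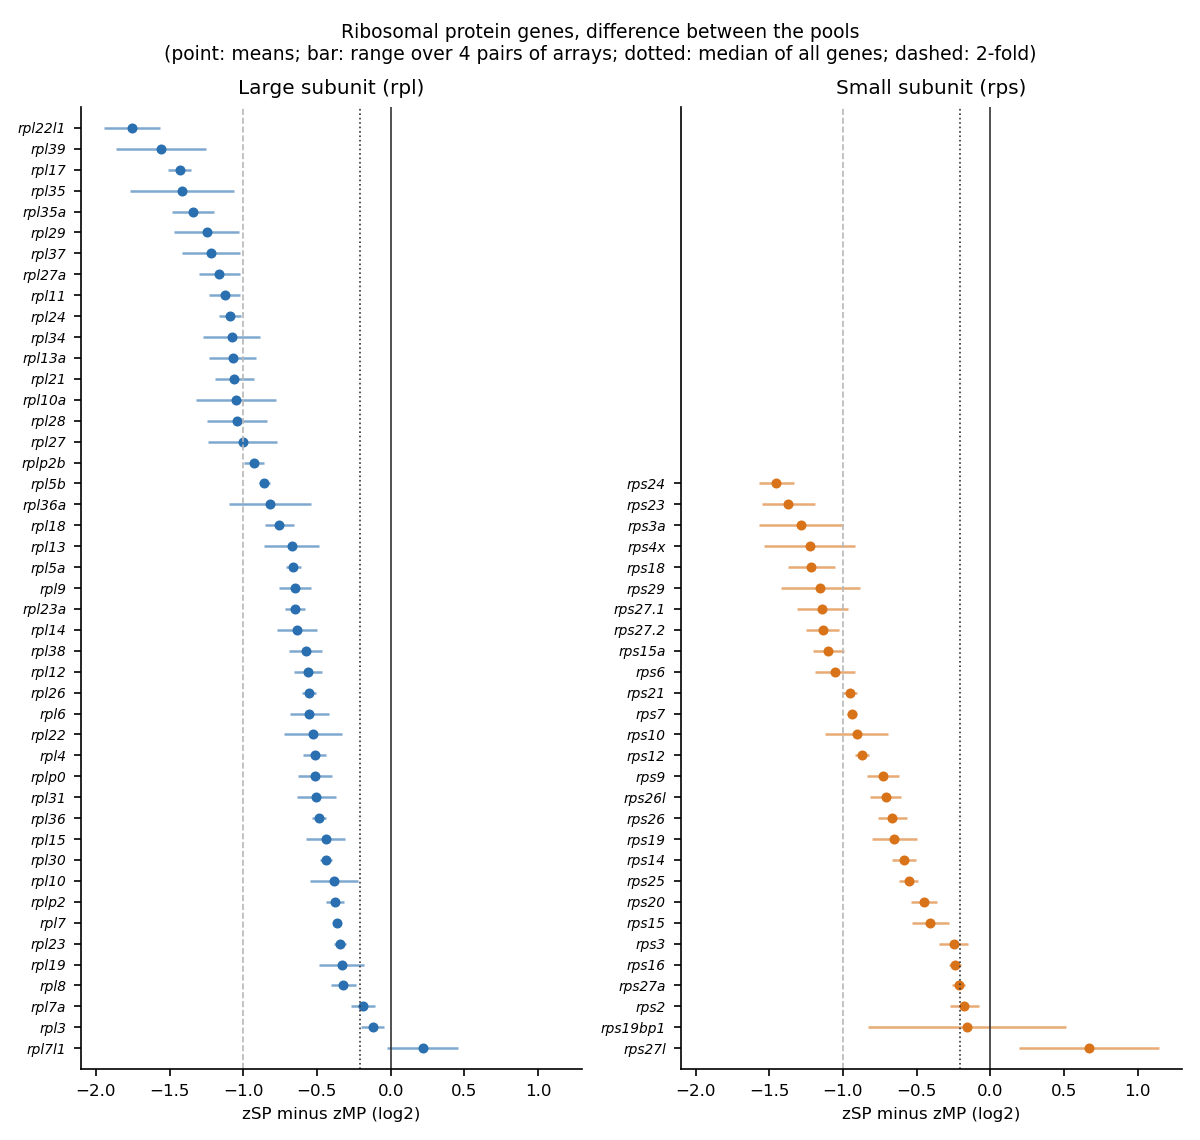
Difference between the pools (zSP minus zMP, log2, horizontal axis) for each of the 45 large subunit genes (left) and 28 small subunit genes (right). Points are differences of pool means and bars the range over the 4 pairs of arrays; rpl22l1 lies farthest to the left at -1.76, rps27l farthest to the right at 0.67, and the dotted line at -0.20 is the median of all genes.

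In the large subunit 10 of 45 genes were called lower in zSP, against 2.89% of all genes. The subunit's median difference was -0.65. The list of proteins around the mouth of the peptide tunnel had 10 measured genes, of which 4 were called, and its median of -0.61 (-0.088 after cyclic loess) was not below that of the whole subunit. rpl22l1, the paralogue of the tunnel-rim protein rpl22, read 9.77 and 9.88 in zSP, against 11.72 and 11.44 in zMP. Its difference of -1.76 (-1.95 to -1.56) was the most negative of the family. rpl39, a very short protein within the tunnel wall, read 10.55 and 10.07 in zSP and 11.94 and 11.81 in zMP, a difference of -1.56 (-1.87 to -1.25). For both genes the pools were separated by well over the gap between aliquots. rpl17, at the tunnel rim, read 11.01 and 10.88 in zSP and 12.39 and 12.36 in zMP (difference -1.43, -1.51 to -1.35). rpl35, near the docking place of the signal recognition particle, read 11.05 and 10.66 in zSP and 12.43 and 12.11 in zMP (difference -1.42, -1.77 to -1.06). The other 6 genes of this list, including rpl19 at -0.33 and rpl22 at -0.52, were not called.

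The 5S particle, in which rpl5 and rpl11 carry the 5S rRNA into the large subunit and, outside the ribosome, bind the p53 regulator Mdm2 in mammals, had 1 called gene of 3. rpl11 read 11.49 and 11.35 in zSP and 12.51 and 12.58 in zMP, a difference of -1.13 (-1.23 to -1.02). The differences of rpl5a and rpl5b were -0.66 and -0.86, with zSP lower in all 4 pairs, as for 41.0% of all genes. None of the 4 measured genes of the P stalk, the arm that recruits elongation factors, was called, and their median difference was -0.54, which turned to 0.010 after cyclic loess. rplp0, the stalk base often used as a reference gene, read 12.89 and 12.77 in zSP and 13.40 and 13.28 in zMP. It too was lower in zSP in all 4 pairs (difference -0.51, -0.63 to -0.40, and 0.039 after cyclic loess).

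The remaining called genes of the large subunit were rpl35a, a Diamond-Blackfan gene in humans, at -1.34 (-1.48 to -1.20), rpl29 at -1.25, rpl37 at -1.22, rpl27a at -1.16 and rpl24 at -1.09 (-1.17 to -1.01). Nearest to 0 on the negative side stood rpl3 and rpl8, which reach towards the peptidyl transferase centre, with rpl7a and rpl19. rpl7 is given as the paralogue of rpl7l1. rpl3 read 13.78 and 13.80 in zSP and 13.84 and 13.98 in zMP, a difference of -0.12 (-0.20 to -0.04). For rpl7a the difference was -0.19, for rpl8 -0.32, for rpl19 -0.33 and for rpl7 -0.36, with zSP below zMP in all pairs as deposited. After cyclic loess the sign turned for all 5, to 0.49 for rpl3, 0.41 for rpl7a, 0.30 for rpl8, 0.26 for rpl19 and 0.23 for rpl7. Loess draws on all probe sets, and members made up 37 of the 50 brightest genes. The turned signs thus cannot show which pool was higher.

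In the small subunit the called genes were rps24, rps23, rps3a, rps18 and rps27.2. rps24, a Diamond-Blackfan gene in humans, read 11.02 and 10.83 in zSP and 12.35 and 12.40 in zMP, a difference of -1.45 (-1.57 to -1.33). rps23, a protein of the decoding centre, read 11.37 and 11.05 in zSP and 12.60 and 12.56 in zMP (difference -1.37, -1.55 to -1.19). In both, every zSP array lay more than 1 below every zMP array. rps3a differed by -1.29, with its closest pair just past the call. rps18, a protein of the subunit's head, differed by -1.21 (-1.37 to -1.05) and rps27.2 by -1.14 (-1.25 to -1.03). rps4x, an X-linked gene in humans, had a mean difference of -1.23 and missed the call, since its closest pair of arrays stood at -0.92. Of the 11 measured genes of the head only rps18 was called, and the list's median difference was -0.55, against -0.012 after cyclic loess.

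rps6, the target of the S6 kinases, read 12.08 and 11.89 in zSP and 13.09 and 13.00 in zMP, and was not called (difference -1.06, -1.19 to -0.92). rps19, the gene most often mutated in Diamond-Blackfan anaemia, read 11.68 and 11.88 in zSP and 12.38 and 12.48 in zMP, a difference of -0.65 (-0.80 to -0.50). rps14, whose loss marks the human 5q- syndrome, read 12.81 and 12.75 in zSP and 13.42 and 13.31 in zMP, a difference of -0.58 (-0.67 to -0.50). For all 3 zSP was lower in all 4 pairs, as for 41.0% of all genes, with gaps short of 2-fold in at least 1 pair. Of the 20 measured genes tied to Diamond-Blackfan anaemia 5 were called lower in zSP, with a median difference of -0.92, against -0.42 after cyclic loess. In the whole family 15 of 73 genes were called lower, and 2.89% of all genes were. The small subunit genes closest to 0 among those lower in all pairs as deposited were rps2 at -0.18, rps27a, which is made as a fusion with ubiquitin, at -0.21, and rps16 at -0.24. After cyclic loess their differences were 0.45, 0.40 and 0.30. Loess draws on the bright members themselves, so that these signs cannot show which pool was higher.

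The small subunit had the lower median by a narrow margin. The median difference was -0.65 for the large subunit (medians of the 4 pairs -0.72 to -0.60) and -0.80 for the small subunit (-0.88 to -0.74). Large minus small was 0.15, between 0.08 and 0.19 in the 4 pairs, the same sign in each. Without rps19bp1, rpl7l1 and rps27l it was 0.23, with pairs from 0.14 to 0.23. The means over all members were -0.76 for the large and -0.75 for the small subunit, a gap of the other sign, and without the 3 exceptions they were -0.78 and -0.82. Among the genes without these exceptions, the gap in medians was 0.061 below their median signal of 12.59 (21 large, 14 small), with all 4 pairs of the opposite sign (-0.10 to -0.0070). It was -0.0036 above that signal (23 large, 12 small), with pairs from 0.0082 to 0.073, so that members of like signal showed no gap with a steady sign. The interquartile ranges overlapped almost fully, from -1.07 to -0.49 for the large and from -1.14 to -0.44 for the small subunit.

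Some paralogous genes differed from each other in how the pools compared. Of 15 listed pairs 8 had both genes measured, and in 2 of these the genes differed from each other by at least 1 in all 4 pairs of arrays. Both hold rps27l, which in human cells is a target of p53. rps27l read 7.54 and 7.11 in zSP and 6.92 and 6.40 in zMP, not far above the top of the blank controls. It was the only member with zSP above zMP in all 4 pairs as deposited (0.67, 0.20 to 1.15), a pattern that 1912 of all 8793 genes showed. Its paralogues rps27.1 and rps27.2 had differences of -1.14 and -1.14, and did not differ from each other beyond the range of the pairs (-0.00, -0.24 to 0.23). rps27.1 minus rps27l was -1.81 (-2.41 to -1.21) and rps27.2 minus rps27l was -1.81 (-2.17 to -1.44).

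rpl22 and rpl22l1, which have opposing roles in the emergence of blood stem cells in zebrafish embryos, differed by 1.23 (0.95 to 1.52) and missed the call by 1 pair. rpl22 read 12.26 and 12.53 in zSP and 12.86 and 12.98 in zMP, so that its pools were separate but close (-0.52, and -0.0069 after cyclic loess), while rpl22l1 was 3.38-fold lower in zSP. After cyclic loess the gap between these paralogues was 1.38 (1.09 to 1.68) and after a second quantile normalization 1.60 (1.37 to 1.83), past the call in both. rps27.1 against rps27l was called under neither, and rps27.2 against rps27l under loess only (-1.45, -1.83 to -1.06). rplp2 and rplp2b, both of the P stalk, had differences of -0.38 (0.15 after cyclic loess) and -0.92, which gave a gap of 0.55 (0.50 to 0.60). rpl5a minus rpl5b was 0.20 (0.14 to 0.26), and rps26 minus rps26l was 0.05 with pairs on both sides of 0. rpl7l1, found in precursors of the large subunit in human cells, read 8.29 and 7.94 in zSP and 7.96 and 7.83 in zMP. These arrays overlapped (0.22, -0.02 to 0.46), and rpl7 minus rpl7l1 was -0.58 (-0.80 to -0.36). This gap held no steady sign after cyclic loess (-0.13, -0.38 to 0.13) or the second quantile normalization (-0.21, -0.48 to 0.05). Partners differ in signal as well as in difference, and cross-hybridization between paralogues was not tested.

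**Figure D2:**
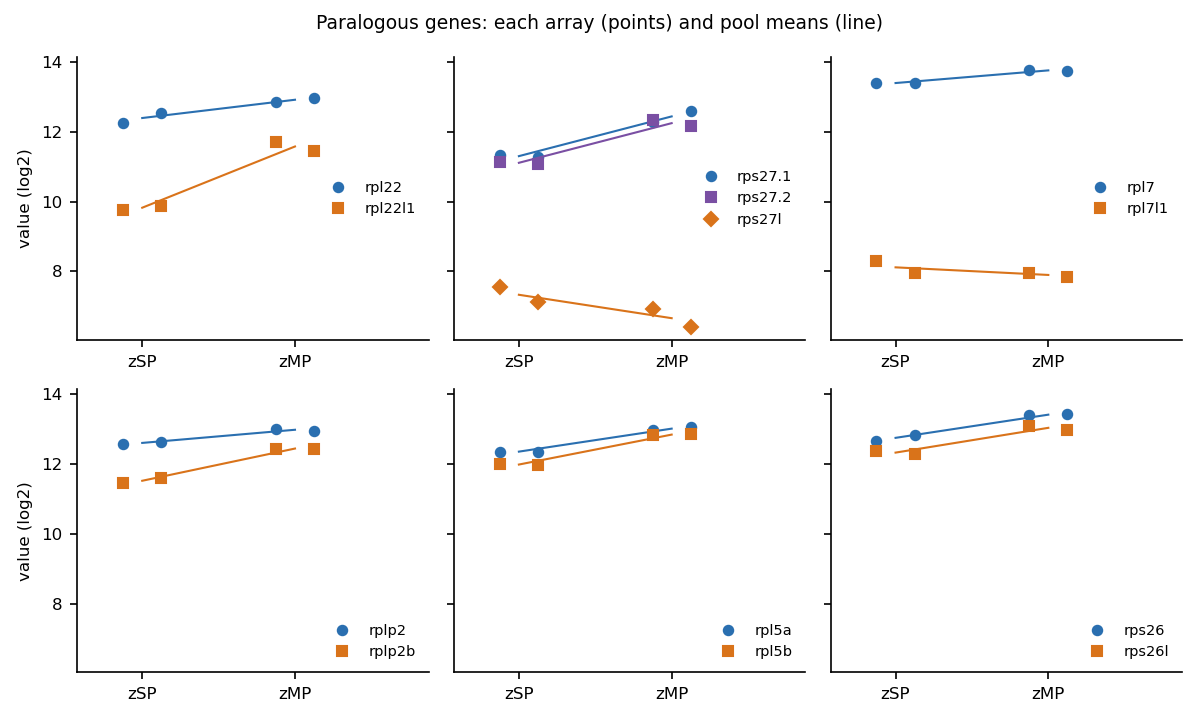
Values (log2, vertical axis) of paralogous genes on each zSP array (left) and zMP array (right), with a line joining the pool means. rpl22l1 lies near 9.8 in zSP against 11.6 in zMP while rpl22 differs less, rps27.1 and rps27.2 run together, and rps27l runs the other way.

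The difference of a member followed its signal closely. Across the 70 genes, Pearson's r between difference and mean value was 0.91 and Spearman's rho was 0.92, with a slope of 0.46 per log2 unit. Pearson's r was 0.93 in the large and 0.88 in the small subunit. These are correlations across genes of the same arrays, which are not independent, and both measures use the same 4 values. Of the 70, the brightest were nearly level and the dimmest farthest apart, so that their values spread more in zSP (SD 0.96) than in zMP (SD 0.60). Among 193 other genes with a mean above 10, r was -0.09. Between a mean of 10 and the members' median of 12.59, 35 members had a median difference of -1.10 and 15 were called lower in zSP, whereas 181 other genes had -0.29 and 9.39% of them were so called. Above that median the other 35 members had -0.50 with none called, and 12 other genes had -0.16.

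Members made up 37 of the 50 brightest genes and 58 of the 100 brightest, and the highest values of the arrays lay between 14.26 and 14.57. Of the 18 hybridization controls only 7 had a mean above 10, where the 70 members lie, and none reached the signal of the brightest members. These 7 had a median difference of -0.08 and the 11 dimmer ones -0.46, so that they too were higher at high signal. Over all 18 controls the medians of the 4 pairs ranged from -0.90 to 0.10. Whether saturation of bright probe sets or the amplification sets the relation was not tested.

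**Figure D3:**
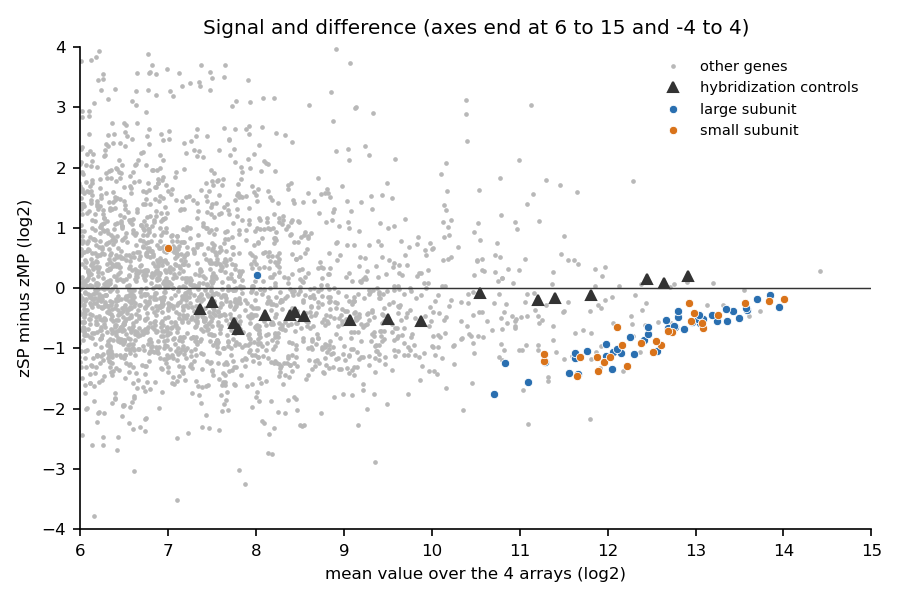
Difference between the pools (zSP minus zMP, log2) against the mean value over the 4 arrays (log2) for large subunit genes, small subunit genes, other genes and hybridization controls. The members form a band that climbs from -1.76 at rpl22l1 to near 0 at the brightest genes, below the 7 hybridization controls with a mean above 10; rps27l and rpl7l1 stand apart at lower signal.

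Renormalizing kept the sign of both subunit medians but changed their size. Shifts of whole arrays move all genes alike, so that by construction they left the family 0.47 below the median of all genes. The family's median was -0.60 after median centring, -0.75 after centring on other genes above the blank range, and -0.32 after centring on the blank controls. Centred on the hybridization controls it was -0.15, with medians of the 4 pairs from -0.75 to 0.31, so that this scaling gave no stable sign. The 2 scalings that depend on signal brought the family closer to the other genes. A second quantile normalization gave -0.26, which is 0.10 below all genes, and cyclic loess gave -0.18. After the first, 67 of the 70 genes without the exceptions still had a negative difference, and after loess 48 did while 22 were positive.

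The 15 called genes kept their direction in all 4 pairs under both, from -1.61 to -0.61 after the second quantile normalization and from -1.39 to -0.60 after loess. They had been chosen for a difference of -1 or below in every pair of these same arrays, so that this is no separate support. Calls were fewer. After the second quantile normalization 4 of the 73 members were called lower in zSP, against 3.51% of all genes. After loess only rpl22l1 was, against 1.89% of all genes. The relation of difference to signal remained, with r of 0.87 and 0.94 over the 70 genes, against 0.91 as deposited. Its slope was 0.43 after the second quantile normalization and 0.53 after loess, against 0.46 as deposited. Both scalings draw on all probe sets, and at the bright end most of the genes were members.

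**Figure D4:**
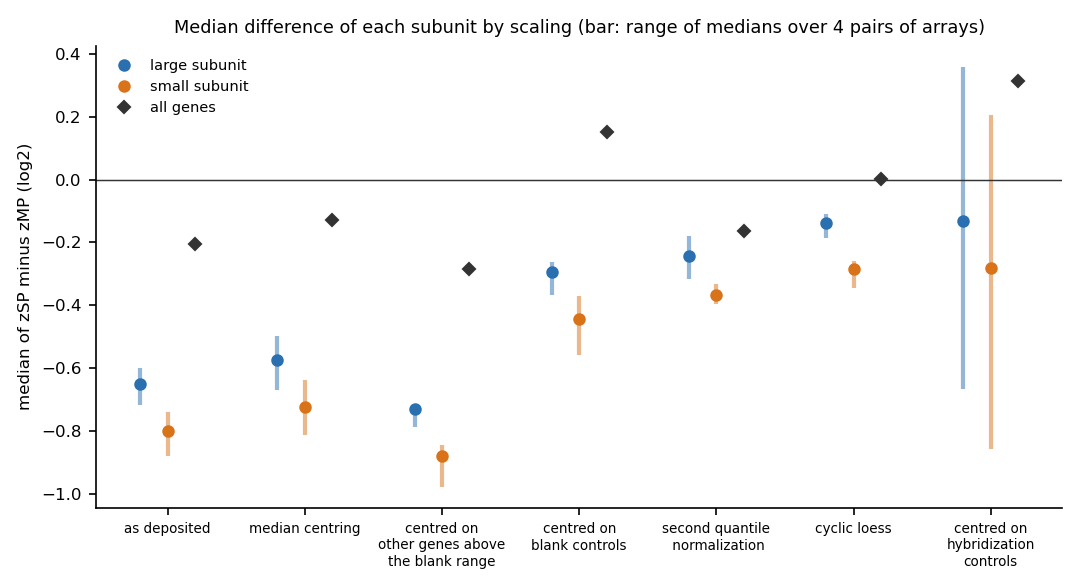
Median difference (zSP minus zMP, log2, vertical axis) of the large subunit, the small subunit and all genes under 7 scalings of the arrays. Bars span the medians of the 4 pairs of arrays; the subunit medians stay below 0 under each, from -0.73 and -0.88 with centring on other genes to -0.13 and -0.28 with centring on hybridization controls, where the bars cross 0.

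Related lists of genes for protein synthesis also had medians below that of all genes. Ribosomal proteins under other names comprised rpsa at -0.39, the scaffold rack1 at -0.47, and faua and faub, whose products carry a small subunit protein, at -1.18 and -0.89. None of the 4 was called. Of 23 other genes with oligopyrimidine transcripts 5 were called lower in zSP (median -0.59), led by the nucleolar chaperone npm1a at -1.58 (-2.03 to -1.13), eif3f at -1.55 and eif3ea at -1.48, while the elongation factor eef1a1l1, which read 13.49 and 13.56 in zSP and 13.52 and 13.61 in zMP, stood at -0.04 (-0.12 to 0.04). Of 32 ribosome biogenesis genes 2 were called lower in zSP (median -0.54), rsl1d1 at -1.37 and rsl24d1 at -1.13. Only 11 of the 32 lay above the blank range in zSP and 17 in zMP, so that many were read near background. Of 59 mitochondrial ribosomal protein genes 1 was called in each direction, mrpl3 higher in zSP at 1.74 and mrpl27 lower at -1.29, with a median of -0.42. Over all genes 2.89% were called lower and 7.85% higher in zSP. Only 19 of the 59 mitochondrial ribosomal protein genes lay above the blank range in zSP and 28 in zMP, so that most were read near background. After cyclic loess the median over all genes was 0.00. It was -0.30 for the ribosomal proteins under other names and -0.26 for the oligopyrimidine genes. For ribosome biogenesis it was -0.32 and for the mitochondrial ribosome -0.21. With centring on the hybridization controls the mitochondrial median was 0.096, beside 0.31 for all genes. That scaling shifts whole arrays, so that by construction it left the list as far below all genes as deposited.

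**Figure D5:**
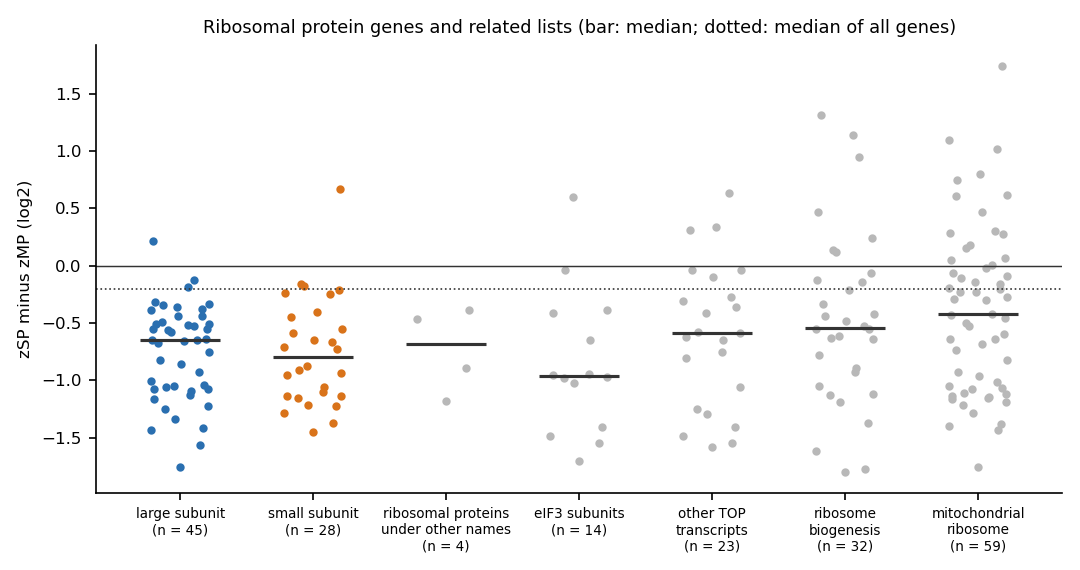
Difference between the pools (zSP minus zMP, log2, vertical axis) for the genes of each list, with the list's median as a bar. The large and small subunits have medians of -0.65 and -0.80, the mitochondrial ribosome -0.42, and the dotted line at -0.20 is the median of all genes.

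A limma fit sets the gap between the RNA pools against the scatter of their aliquots and does not test the populations. With a common prior for the spread it called 1 member lower in zSP, rpl22l1 (adjusted p = 0.0463 after Benjamini-Hochberg), against 0.478% of all genes. With the replicate number as a block this call was lost (limma adjusted p = 0.137). With a prior that follows mean signal it called 55 members, 35 of the large and 20 of the small subunit, against 1.65% of all genes. Bright probe sets vary less between aliquots, which the fit with this prior takes into account.

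Most members rested on a single probe set, and 4 had several. The 3 probe sets of rps27.1 had differences of -1.14, -1.09 and -1.14. For rpl3 they disagreed in size: the brighter one gave -0.12 and the other, at 12.30 and 12.37 in zSP and 13.07 and 13.22 in zMP, gave -0.81. The small difference of rpl3 thus held for 1 of its 2 probe sets. For 7 members the probe set carries the manufacturer's mark for probes shared between transcripts.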

How the data were processed

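The deposited values are on the log2 scale and cover 15617 probe sets of a zebrafish Affymetrix array. The submitters' processing notes name RMA and affy, with versions and settings not given in the sources. Per the labels' protocols, the RNA was amplified by in vitro transcription in 2 rounds. Leaving out 115 control probe sets left 15502, of which 10795 carried 1 gene, 135 several and 4572 none in the platform annotation. Symbols were updated through RefSeq's table of the GRCz12tu assembly, in which 8723 of 8796 gene identifiers were found, and each gene was represented by its single-gene probe set with the highest mean, 8793 genes in all. The 73 members used 78 probe sets.

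Differences, their ranges over the 4 pairs of arrays and the calls were computed from all 4 deposited columns with Python 3.11.15, numpy 2.4.6 and pandas 2.3.3, and limma 3.58.1 in R 4.3.3 supplied the renormalized values and the fits. The range of a list's medians over the pairs need not enclose the median of its mean differences. The blank range ends at the highest pool mean, 6.15, of 49 control probe sets for bacterial, tag and reporter sequences. The size rule and the fits were run on simulated data with added differences larger than that of any member, so that sizes near the call were not tried. With 2 arrays of 1 pool for each population, the number of arrays limits the precision. The labels do not say that array numbers pair the pools.

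The members, lists and tests were chosen with earlier results of these data known. Named were all called members up to 12 in each direction, the 5 highest and 5 lowest of each subunit, every gene of a paralogue pair measured in full, and rplp0, rps6, rpl5a, rpl5b, rpl11, rps19, rps14, rpl22 and rpl22l1, and from each other list up to 3 called genes, or the 2 with the largest difference where none was called. Genes outside this rule (rack1, rpsa, eef1a1l1, rpl24, eif3ha, eif3jb, sbds, eif6, epcam, ptprc and a few given for a list) were picked with their values in view. Alternatives were other sizes, pool means alone, each array left out, 6 other scalings, averaged probe sets, no shared-sequence probe sets, a filter at the blank range, members left out, and limma with a replicate block or a trend. Centring on hybridization controls, leaving out rps19bp1 with or without rpl7l1 and rps27l, and the ranges of signal below and above the members' median were added after the data were seen.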

Additional observations from a re-analysis of the deposited data

How the results depend on the processing

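Each population is 1 pool, so that no setting tests biological spread, and probe signal, not depth, limits what can be read near the blank range. The 0 members called higher in zSP and the negative sign of the 3 medians of mean differences held under all settings run, though with centring on hybridization controls the medians of single pairs of arrays lay on both sides of 0. The 15 members called lower in zSP became 36 at 1.5-fold, 0 at 3-fold, 26 by pool means alone, 6 after median centring, 1 after centring on blank controls, 4 after a second quantile normalization, 1 after cyclic loess, 0 with centring on hybridization controls and 0 among genes above the members' median signal. Over all genes the shares called lower were 9.66% at 1.5-fold, 0.694% at 3-fold and 9.22% by pool means alone. They were 2.35% after median centring, 1.18% with centring on blank controls and 0.591% on hybridization controls. After the second quantile normalization the share was 3.51%, and after cyclic loess 1.89%. Above the members' median signal no gene was called. With 1 array left out the members called lower numbered 15 to 26, the 26 without zSP replicate 1, against 6.05% to 6.72% of all genes. Plain limma called 1 member lower in zSP (0.478% of all genes). Limma with a trend called 55 (1.65% of all genes), and limma with the replicate block called no gene. At an unadjusted limma p under 0.05, 33 members were lower in zSP in the block fit, among 816 of the 8793 genes. In the plain fit 46 members were, among 1237 of the 8793 genes. Differences between replicates 1 and 2 did not go together in the pools (r = -0.0086 across all genes), although all 18 hybridization controls read lower on replicate 1 in both. Medians for all members, the large and the small subunit were -0.60, -0.57 and -0.72 after median centring, -0.75, -0.73 and -0.88 with centring on other genes, -0.32, -0.29 and -0.44 on blank controls, -0.15, -0.13 and -0.28 on hybridization controls, -0.26, -0.24 and -0.37 after the second quantile normalization, and -0.18, -0.14 and -0.28 after loess. They were -1.10, -1.08 and -1.14 from a signal of 10 to the members' median and -0.50, -0.50 and -0.50 above that. The small subunit median was -0.87 above the blank range, or without rps19bp1, and -0.89 without members ending in l or l1, or without rps19bp1, rpl7l1 and rps27l, which set the median of all members at -0.72. With 1 array left out the medians lay between -0.74 and -0.67 for all members, -0.69 and -0.63 for the large and -0.84 and -0.75 for the small subunit. Large minus small was 0.11 to 0.21 with 1 array left out, 0.22 above the blank range or without rps19bp1, 0.24 without members ending in l or l1, 0.23 without the 3 exceptions, 0.061 below the members' median signal, and reversed at -0.0036 above it. The 2 called paralogue pairs became 0 at 3-fold and 0 without members ending in l or l1 or without the 3 exceptions, which removes rps27l itself. After the second quantile normalization 1 pair was called, rpl22 with rpl22l1, and both calls made as deposited were lost. The cause of the other shifts was not tested.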

Other observations

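The eIF3 complex, which brings the small subunit to the messenger RNA, had 14 measured subunits. Of these 4 were called lower in zSP, against 2.89% of all genes. Among the 4, eif3ea, eif3f and eif3ha are also called genes of the oligopyrimidine list, so that the lists are not separate. The median difference of the 14 was -0.96, against -0.20 over all genes. With centring on other genes that median was -1.04, beside -0.28 for all genes, and on hybridization controls -0.44, beside 0.31. Centring shifts whole arrays, so that by construction it cannot change the gap to all genes. After the second quantile normalization the eIF3 median was -0.90, beside -0.16 for all genes. After cyclic loess it was -0.62, beside 0.00. Calls lower in zSP numbered 4 after the second quantile normalization (3.51% of all genes) and 1 after loess (1.89%). They numbered 5 with centring on other genes (3.53%), 1 on blank controls (1.18%) and 0 on hybridization controls (0.591%). eif3m read 10.37 and 10.01 in zSP and 11.88 and 11.90 in zMP, a difference of -1.70 (-1.89 to -1.51). eif3ha read 8.17 and 8.54 in zSP and 9.72 and 9.80 in zMP, a difference of -1.41 (-1.63 to -1.18). In both the pools were well apart. eif3jb was the only subunit with a positive difference, 0.60, and its arrays overlapped (-0.48 to 1.68).

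Of the 32 ribosome biogenesis genes 25 had a negative difference. In all 4 pairs zSP was lower for 15 of them (40.96% of all genes were so) and higher for 3 (1912 of all 8793 genes). Some had higher means in zSP without being called. sbds, which helps to release eIF6 from the large subunit, read 5.36 and 4.92 in zSP and 3.38 and 4.26 in zMP, below the top of the blank controls throughout. eif6, which keeps the subunits apart, read 8.51 and 8.41 in zSP and 7.40 and 7.62 in zMP, a difference of 0.95 (0.79 to 1.11). A probe set shared by kank1a and rpl32, not used for any gene, read 11.43 and 11.08 in zSP and 12.55 and 12.40 in zMP, a difference of -1.22.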
